A study of Rattus norvegicus with 14 samples.

Results

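Between embryonic day 13 (E13) and E16 the rat testis passes through cord formation and the start of hormone production, and the comparison described here sets the 2 arrays of E16 testis against the 2 arrays of fresh, uncultured E13 testis. These 4 arrays, chosen by their titles, are part of 14 in the series, and the comparison covers all 15866 probe sets that are not Affymetrix controls. Every array held RNA of a separate pool of 20 to 40 gonads, with 2 pools per group, and the labels name no strain, genotype or treatment for the fresh gonads. The other groups were E14 testis, E13 testis after 3 days of organ culture, and ovary at E16, E14 and E13. A pool of whole gonads mixes Sertoli, Leydig, peritubular, germ, vascular and blood cells, and in such bulk RNA fewer cells of a type and less RNA per cell cannot be told apart.

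In the XY fetus the gonadal ridge expresses Sry for a short time, and supporting cells that carry it become Sertoli cells. Sertoli cells enclose the germ cells in cords and secrete anti-Müllerian hormone (Amh). Fetal Leydig cells appear between the cords afterwards and turn cholesterol into androgens, while peritubular and stromal cells lay down matrix around the cords. In rat and mouse the XY germ cells do not enter meiosis before birth.

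The label checks came out as follows. Sry, the Y-linked testis-determining gene, read 28.2 and 18.5 intensity units in the E16 testis arrays and 163 and 185 in the E13 testis arrays, the highest of the 3 ages. Amh read 1093 and 814 at E16 and 79.5 and 63.9 at E13. Xist, the RNA of the inactive X chromosome, which XY cells do not make, read 3.3 and 1.5 at E16 but 36.2 in replicate 1 of E13 testis, against 1.9 in replicate 2. A further 3 arrays outside this comparison had Xist values against their labels (replicate 1 of E14 testis, replicate 1 of cultured testis and replicate 2 of E16 ovary), and counts without these 4 arrays are given beside the main lists. Array medians lay between 59.5 and 69.1 units. The form and dates of the chip labels fell into 3 periods: replicate 2 of both ages lay in period 1, replicate 1 of E16 testis in period 2 and replicate 1 of E13 testis in period 3. These periods, and 8 finer chip batches within them, were inferred from the labels and may not match hybridisation batches.

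At E16, 112 probe sets were higher and 38 were lower than at E13, at an adjusted p under 0.05 by limma with Benjamini-Hochberg adjustment over all probe sets, which is 0.945% of those tested (0.706% higher and 0.24% lower). Differences were taken on the scale log2(intensity + 16), which damps the noise of dim probe sets and understates their change. At an unadjusted p under 0.05 there were 1704, where 793 are called if nothing differs. The rises were larger than the falls: 30 rises reached 2 on the log2 scale and 6 falls reached -2, and the median was 1.44 among the rises and -1.26 among the falls. In all 150 the 2 arrays of one age lay beyond both arrays of the other, which by itself was true of 18.9% of probe sets upward and 22.4% downward. It follows that all 150 moved the same way between the 2 arrays of period 1, so this is no separate check. Where arrays of a called gene are said below to lie apart, this likewise describes the call and adds no support to it. The 131 called probe sets with 1 gene symbol stood for 95 genes that were higher and 30 that were lower.

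**Figure D1:**
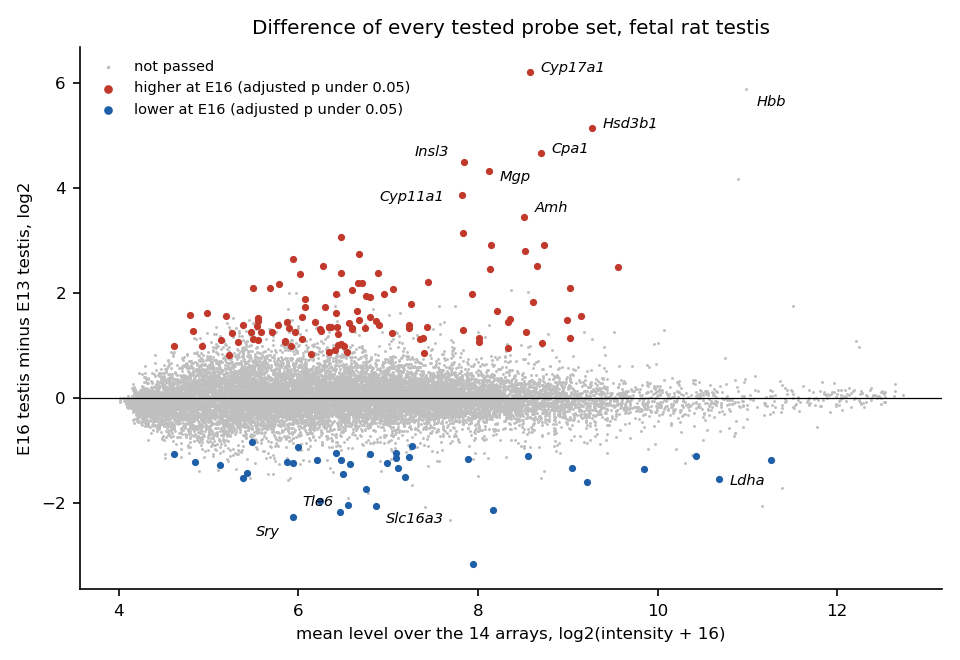
Each point is a probe set, with its mean level over the 14 arrays on the horizontal axis, log2(intensity + 16), and the E16 minus E13 testis difference on the vertical axis, log2. The 112 higher (red) and 38 lower (blue) probe sets passed an adjusted p of 0.05, Cyp17a1 lies highest at 6.22, and Hbb (5.89) did not pass.

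The calls leaned on single arrays to very different degrees. Of 54 named genes with a call, 15 kept it whichever 1 of the 4 arrays was left out: Cyp17a1, Hsd3b1, Cyp11a1, Fdx1, Cpa1, Amh, Tsx, Aard, Tesc, Mgp, Dcn, Mfap4, Enpep, Nppc and, as the one fall, Sry. Without replicate 2 of E16 testis 16 of the 54 kept their call, without replicate 2 of E13 testis 21, without replicate 1 of E13 testis 31 and without replicate 1 of E16 testis 34. Without the 4 arrays with discordant Xist only Amh, Cpa1, Cyp11a1, Cyp17a1 and Hsd3b1 kept it. Over all probe sets the 150 calls became 78 or 22 when replicate 1 or 2 of E16 testis was dropped, 85 or 36 when replicate 1 or 2 of E13 testis was dropped, 96 without either E13 ovary array, and 6 without the 4 arrays with discordant Xist (1651 at an unadjusted p under 0.05).

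The steroid-making genes of the fetal Leydig cell held the largest rises. Cyp17a1, the 17-hydroxylase and lyase that leads to androgens, read 1232 and 2566 in the E16 arrays and 15.5 and 2.3 in the E13 arrays. That is a log2 difference of 6.22 ± 0.49 (SE, n = 2 arrays per age; limma adjusted p = 0.000317), the largest rise of the comparison. Hsd3b1, a 3-beta-hydroxysteroid dehydrogenase, read 1432 and 2202.5 at E16 and 36.1 and 33.0 at E13 (log2 5.15 ± 0.42, limma adjusted p = 0.000317). Its probes may also read near-identical copies of the Hsd3b family. Cyp11a1, which cleaves the side chain of cholesterol in the first committed step, read 615 and 1051 at E16 and 39.5 and 41.1 at E13 (3.87 ± 0.22, limma adjusted p = 3.14e-05). For these 3 enzymes both E16 arrays stood far above both E13 arrays, and replicate 2 of E16 was the higher one each time.

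Star, Fdx1 and Scarb1, which bring cholesterol or electrons to these enzymes, were higher as well. Star, which carries cholesterol into the mitochondrion, read 183 and 365 at E16 and 45 and 30.3 at E13 (log2 2.38 ± 0.35, limma adjusted p = 0.0109), and a second Star probe set gave 2.38 as well. Fdx1, the ferredoxin that feeds electrons to Cyp11a1, read 766 and 1240 at E16 and 216 and 217 at E13 (2.09 ± 0.23, limma adjusted p = 0.00211). Scarb1, the receptor that takes up cholesterol from high-density lipoprotein, read 164 and 342 at E16 and 34.8 and 45.4 at E13 (2.18 ± 0.35, limma adjusted p = 0.0135), and its second probe set gave 2.74. The E16 and E13 arrays did not overlap for any of them. Insl3, the Leydig hormone that guides testis descent, read 540.0 and 1659 at E16 and 37.8 and 18.1 at E13 (4.49 ± 0.57, limma adjusted p = 0.00449). Hsd17b3, which makes testosterone from androstenedione, read 158 and 146 at E16 and 49.6 and 22.7 at E13 (1.74, limma adjusted p = 0.0334).

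Of the 19 measured genes on the steroidogenesis and Leydig list, 8 were higher and 0 lower, against 0.836% of genes called higher when each of 10411 genes is counted once. The list median was 1.01, against -0.015 over all genes. The members that did not pass were Lhcgr, the receptor for luteinizing hormone (1.35, limma adjusted p = 0.0602), Pdgfra (1.01), Inhba (0.36), Por (0.34), Tspo (0.27), Hsd17b7 (0.25), Cyb5a (0.20), Cyp51 (0.19), Nr5a1 (0.17), Hsd17b1 (-0.38) and Akr1b7 (-0.80). A dimmer probe set of Hsd17b7 did pass (1.13, limma adjusted p = 0.0129). Nr5a1, the nuclear receptor that drives steroidogenic genes, was dim at both ages, at 33.6 and 30.1 in the E16 arrays and 15.3 and 42.0 in the E13 arrays. Of 27 measured cholesterol synthesis and uptake genes only Scarb1 passed, with a median of 0.17, and that count became 0 without either E13 array or E16 replicate 2. The Leydig count of 8 became 4 without replicate 2 of either age, 7 without replicate 1 of either age, and 3 without the 4 arrays with discordant Xist. This list and the later ones were chosen with earlier results of these data known. The shares over all genes are therefore not a like baseline.

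The 2 E16 pools differed in these genes. In 7 of the 8, replicate 2 read higher than replicate 1, and the ratio of replicate 2 to replicate 1 ran between 0.925 for Hsd17b3 and 3.07 for Insl3. The median gap between the E16 arrays over all higher calls was 0.218 on the log2 scale, replicate 2 being the higher. Another steroid-making tissue, the adrenal, lies next to the gonad at these ages. None of 7 measured adrenal-type genes passed, their intensities summed to 111 and 118 at E16 and 229 and 165 at E13, and Cyp21a1 (10.1 and 7.6 at E16, 24.8 and 7.9 at E13) and Cyp11b1 (11.9 and 15.3 at E16, 24.8 and 21.8 at E13) stayed dim. With a mean intensity of at least 50 required, 0 members of this list remained. Whether adrenal tissue was in the pools was not tested.

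RefSeq (GRCr8) gives the bases before the transcription start for 3 of the steroidogenic and Leydig genes with the largest rises, shown here because these genes moved together. Cyp17a1 and Star are named only. Each run is the 250 bases before the start, in the direction of transcription. Capitals mark AGGTCA or its reverse complement TGACCT, the core letters bound by Nr5a1 and other nuclear receptors. Cyp11a1 lies at chr8:67318415-67318664 on the plus strand, Hsd3b1 at chr2:188864695-188864944 on the minus strand and Insl3 at chr16:18432939-18433188 on the plus strand.
Cyp11a1: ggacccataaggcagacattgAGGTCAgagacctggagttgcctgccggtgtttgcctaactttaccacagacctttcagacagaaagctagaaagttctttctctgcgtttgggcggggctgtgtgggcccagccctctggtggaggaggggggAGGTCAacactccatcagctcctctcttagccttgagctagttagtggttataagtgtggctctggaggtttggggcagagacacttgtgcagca
Hsd3b1: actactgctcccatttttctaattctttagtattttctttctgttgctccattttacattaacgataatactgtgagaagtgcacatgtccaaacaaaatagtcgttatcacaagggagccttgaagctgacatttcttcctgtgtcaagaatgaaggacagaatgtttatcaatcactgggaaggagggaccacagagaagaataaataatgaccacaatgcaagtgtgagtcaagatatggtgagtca
Insl3: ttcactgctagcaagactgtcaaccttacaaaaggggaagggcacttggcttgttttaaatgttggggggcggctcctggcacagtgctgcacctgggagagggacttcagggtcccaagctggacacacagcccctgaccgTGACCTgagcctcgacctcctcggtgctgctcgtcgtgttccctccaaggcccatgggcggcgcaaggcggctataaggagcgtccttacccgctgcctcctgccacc

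The core occurred 2 times before Cyp11a1, at bases -229 to -224 and -95 to -90, and 1 time before Insl3, on the opposite strand at -108 to -103. It did not occur in the Hsd3b1 window. Among the promoters in the RefSeq table, 14.1% of 33469 held the core on either strand in a window of the same length. On the list it was present in 6 of 14 promoters, and in 3 of the 5 whose genes rose (Cyp11a1, Insl3 and Fdx1). The longer form AAGGTCA, which contains the core and so overlaps it, was in 3.99% of all promoters, in 1 of the 14 (Akr1b7) and in 0 of the 5. These are letter matches and not measured binding sites.

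Sertoli cell genes formed the second group that rose. Amh showed a log2 difference of 3.46 ± 0.30 (limma adjusted p = 0.000369), on the values given above. Aard, a gene of male supporting cells in mouse, read 1465 and 1563 at E16 and 290 and 226 at E13 (2.49 ± 0.26, limma adjusted p = 0.00169). Tsx, an X-linked gene of the testis, read 472 and 840 at E16 and 76.1 and 42.0 at E13 (3.14 ± 0.34, limma adjusted p = 0.00211). All 3 had E16 arrays well clear of the E13 arrays. Tesc, a calcium-binding protein, read 84.7 and 113 at E16 and 9.0 and 9.4 at E13 (2.18 ± 0.25, limma adjusted p = 0.00263). Vnn1, a pantetheinase, rose by 1.66, Cldn11, the tight junction claudin of Sertoli cells, by 1.5, and Inha, the inhibin alpha subunit, by 1.29. A dimmer Cldn11 probe set did not pass (0.62).

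On the Sertoli list 7 of 23 measured genes were higher and 0 lower, against 0.836% and 0.211% of all genes, with a median of 0.43. Genes of the same list that act early in Sertoli fate did not pass in either direction: Dmrt1 differed by -0.05, Fgf9 by 0.04, Gata4 by 0.43, Wt1 by -0.75 and Nr0b1 by -1.21 (limma adjusted p = 0.0538). Nr0b1 read 72.2 and 60.5 at E16 and 168 and 182 at E13. The list count of 0 lower became 1 with an offset of 50, quantile scaling or a mean intensity of at least 50. It was also 1 with the intensity trend or the random chip batch block, and 2 with chip period as a block. The count of 7 became 4 without replicate 2 of either age, 5 without E13 replicate 1, 6 without E16 replicate 1, and 1 (Amh) without the 4 arrays with discordant Xist.

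E14 testis arrays showed where within the span the levels moved. They are set against the same E13 arrays, so values and counts are given without a test. Cyp17a1 read 15.5 and 2.3 at E13, 4.3 and 3.9 at E14, and 1232 and 2566 at E16. Cyp11a1 read 39.5 and 41.1 at E13, 45 and 39.8 at E14, and 615 and 1051 at E16. These enzymes were as dim at E14 as at E13. Amh read 79.5 and 63.9 at E13, 760 and 477 at E14, and 1093 and 814 at E16. Aard read 290 and 226 at E13, 745 and 1008 at E14, and 1465 and 1563 at E16. Both Sertoli genes thus lay well above their E13 values by E14. Both E14 arrays exceeded both E13 arrays in 6 of the 7 Sertoli genes that rose (not Cldn11) and in 1 of the 8 Leydig genes (Hsd17b3), against 15.2% of all genes. In 2 of the 8 Leydig genes both E14 arrays lay below both E13 arrays. Of the rises described further on, all 4 matrix genes, all 4 TGF-beta family genes (Amh and Inha among them) and 1 of 2 collagens were above E13 by E14. Both genes that fell on the early transcription factor list and all 4 that fell on the glycolysis list, described further on, had E14 arrays below both E13 arrays, against 20.2% of all genes. The called genes were chosen by these same E13 arrays, which favours such an order, so the shares of all genes are not a like baseline.

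**Figure D2:**
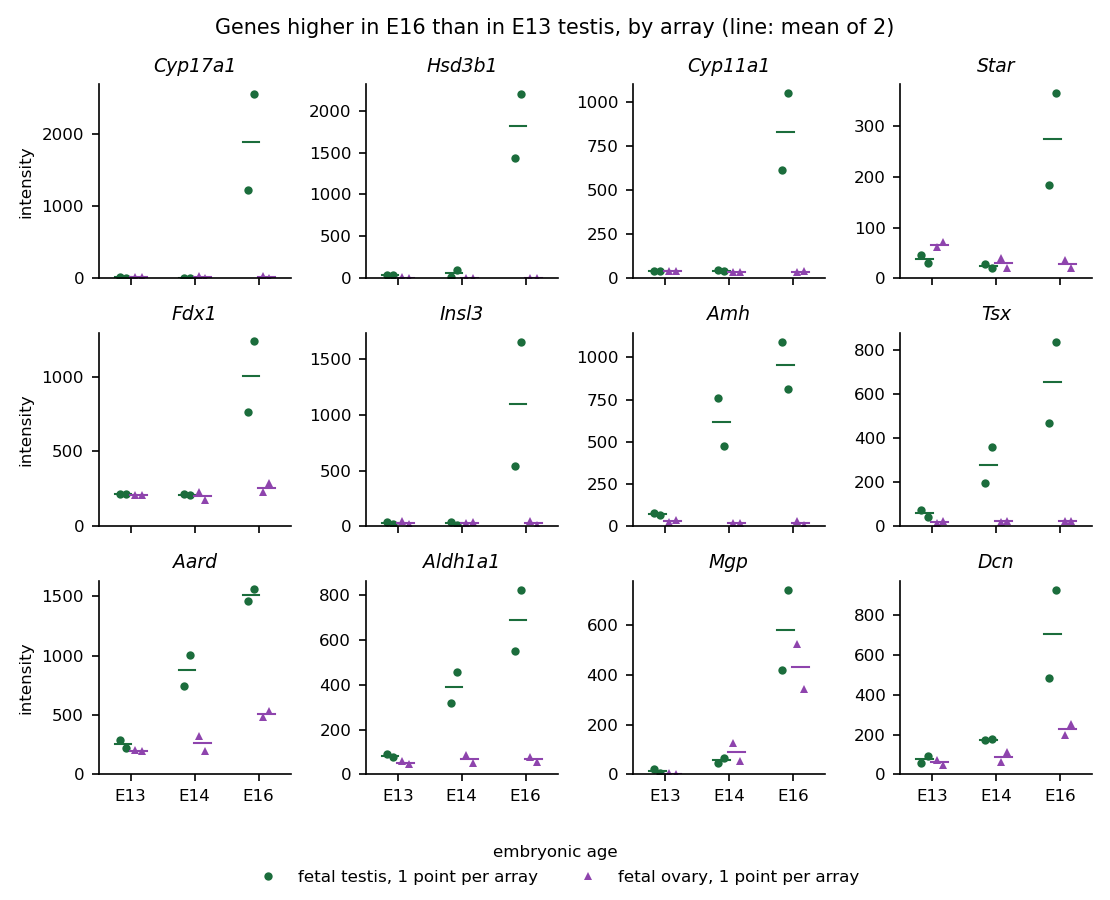
Intensity (vertical axes, linear, each from 0) at E13, E14 and E16 for 12 genes that were higher in E16 than in E13 testis, with 1 point per array, testis as green circles, ovary as purple triangles and a line at the mean of 2. Of the ages shown, Cyp17a1, Hsd3b1, Cyp11a1, Star, Fdx1 and Insl3 stand far above their E13 testis level only at E16 (Hsd3b1 reads up to 95.6 at E14), while Amh, Tsx, Aard, Aldh1a1, Mgp and Dcn are already higher at E14.

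Cpa1, a carboxypeptidase best known from the pancreas, had the third largest rise among the named genes that passed. It read 1532 and 3182 at E16 and 90.3 and 56.6 at E13 (log2 4.66 ± 0.39, limma adjusted p = 0.000317), and 40.2 and 21.7 at E14. Like the Leydig enzymes it was bright at E16 alone among the fresh testis ages, and again replicate 2 was the higher E16 array. In E13 testis after organ culture, Cpa1 read 199 and 210, Cyp17a1 438 and 773, and Cyp11a1 488 and 408. On the list of secreted and surface peptidases and inhibitors 3 of 117 passed, all higher, against 0.836% of all genes, with a median of -0.07 and 72 members below 0. They were Cpa1, Htra3, a serine protease (1.95 ± 0.30, limma adjusted p = 0.0124), and Enpep, the aminopeptidase that trims angiotensin II. Enpep read 156 and 158 at E16 and 3.3 and 6.3 at E13 (3.06 ± 0.25, limma adjusted p = 0.000317). The dimmer of its 2 probe sets differed by 0.22 and did not pass, and the second Htra3 probe set did not pass either. The count of 3 became 2 without any 1 of the 4 arrays and 1 (Cpa1) without those with discordant Xist. Svs5, a protein of seminal vesicle fluid, read 103 and 318 at E16 and 27.6 and 7.0 at E13 (2.66 ± 0.48, limma adjusted p = 0.0279).

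Matrix genes of the stroma rose in a small number of large steps. Mgp, matrix Gla protein, an inhibitor of calcification, read 422 and 742 at E16 and 20.6 and 6.3 at E13 (log2 4.33 ± 0.39, limma adjusted p = 0.000508). Dcn, the collagen-binding proteoglycan decorin, read 483 and 929 at E16 and 58.1 and 94.5 at E13 (2.92 ± 0.34, limma adjusted p = 0.00263). Mfap4, a microfibril glycoprotein, read 541 and 1030 at E16 and 82.2 and 88.4 at E13 (2.91 ± 0.30, limma adjusted p = 0.00159). E16 and E13 arrays lay far apart for all 3. Ogn, osteoglycin, rose by 1.93 ± 0.26 (limma adjusted p = 0.00615), and 2 of its other 3 probe sets passed as well.

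Of 33 measured matrix and stroma genes, 4 were higher and 0 lower, against 0.836% and 0.211% of all genes, with a median of 0.11. The basement membrane genes on that list differed little between the ages: Lama1 differed by -0.07, Lamb1 by 0.10, Lamc1 by 0.43 and Nid1 by 0.22, and none passed. Of 29 collagens, Col6a3 (2.21 ± 0.40, limma adjusted p = 0.0272) and Col14a1 (1.49 ± 0.23, limma adjusted p = 0.0122) passed, against 0.836% of all genes called higher. The partners of Col6a3 in type VI collagen, Col6a2 (1.76, limma adjusted p = 0.302) and Col6a1 (1.2, limma adjusted p = 0.255), and the type I chains Col1a1 (1.29) and Col1a2 (1.04), did not. The collagen count of 2 became 0 without replicate 2 of either age or without the 4 arrays with discordant Xist, and 1 without replicate 1 of either, and the matrix count of 4 was 3 or 4 without any of the 4 arrays and 0 without those with discordant Xist.

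Of 18 measured contractile genes of smooth muscle and peritubular cells 1 was higher and 0 lower, against 0.836% of all genes called higher. Acta2, smooth muscle actin, read 470.0 and 542.5 at E16 and 214.5 and 191 at E13 (log2 1.25, limma adjusted p = 0.0666). Mylk, myosin light chain kinase, read 454 and 557 at E16 and 192 and 174 at E13 (1.39, limma adjusted p = 0.0525). Their arrays did not overlap between the ages, but neither passed. Tpm2, a tropomyosin, passed alone at 1.35 ± 0.26 (limma adjusted p = 0.0357), its brighter member Tpm1 differed by 0.17, and a dimmer Tpm1 probe set was lower (-0.92, limma adjusted p = 0.0235). Among the 18 members 16 lay above 0, and the median was 0.45. The count of 1 became 0 without E13 replicate 2, without either E16 array and without the 4 arrays with discordant Xist, and 5 with chip period as a block.

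Signalling genes that passed were few and mostly ligands or binding proteins. Nppc, C-type natriuretic peptide, read 181 and 188 at E16 and 55.1 and 35.4 at E13 (log2 1.73 ± 0.20, limma adjusted p = 0.00263). Jag1, a Notch ligand, read 126 and 109.5 at E16 and 28.2 and 13.1 at E13 (1.89 ± 0.25, limma adjusted p = 0.00537). Sfrp4, a secreted Wnt antagonist, rose by 2.08 ± 0.40 (limma adjusted p = 0.0365) on its brighter probe set and did not pass on the dimmer one. All 3 read higher on both E16 arrays than on both E13 arrays. They were the only passing members among 6 natriuretic peptide, 15 Notch and 25 Wnt genes measured, against 0.836% of all genes called higher. Igfbp7, a secreted growth factor binding protein, read 685 and 995 at E16 and 141 and 122 at E13 (2.52 ± 0.34, limma adjusted p = 0.00615), the only one of 16 IGF genes to pass. Nppc kept its call without any 1 of the 4 arrays. Jag1 and Igfbp7 lost theirs without replicate 2 of either age, Sfrp4 lost its call without any 1 of the 4, and all lost it without the arrays with discordant Xist.

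In the TGF-beta family 4 of 35 measured genes were higher and 1 lower, against 0.836% and 0.211% of all genes. The list median of 0.005 turned to -0.007 with quantile scaling and -0.017 with median centring. Besides Amh and Inha the higher ones were Tgfb3 (1.36 ± 0.23, limma adjusted p = 0.0214) and Gdf10 (1.47 ± 0.28, limma adjusted p = 0.0334). The lower one was Amhr2, the receptor for Amh, which read 173 and 171 at E16 and 437 and 477 at E13 (-1.33 ± 0.19, limma adjusted p = 0.0084). The hormone and its receptor thus moved in opposite directions in the same pools. Bmp4 read 67.2 and 67.9 at E16 and 140 and 133 at E13 without passing (-0.87, limma adjusted p = 0.0661). The counts of 4 and 1 became 2 and 0, or 1 and 0, without E16 replicate 1 or 2, 1 and 1, or 1 and 0, without E13 replicate 1 or 2, and 1 and 0 without the 4 arrays with discordant Xist.

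Retinoid genes also moved both ways. Aldh1a1, which makes retinoic acid from retinaldehyde, read 550 and 824 at E16 and 89.5 and 77.3 at E13 (log2 2.80 ± 0.34, limma adjusted p = 0.00358). Crabp1, a cytosolic binding protein for retinoic acid, read 150 and 117.5 at E16 and 286 and 356 at E13 (-1.17 ± 0.19, limma adjusted p = 0.0174). The arrays of the ages lay apart for both. They were the only 2 of 16 measured genes on this list to pass, against 0.836% of all genes called higher and 0.211% called lower. Detoxifying glutathione transferases gave 2 of 30, Gsta1 (2.46 ± 0.37, limma adjusted p = 0.0114) and Gstt1 (2.18 ± 0.37, limma adjusted p = 0.0174), both higher, beside 0.836% of all genes. Gsta1 may share probes with near-identical copies. The retinoid counts of 1 and 1 became 0 and 0 without E16 replicate 2, and 1 and 0 without E13 replicate 2. The glutathione count of 2 became 1 without E16 replicate 1 and 0 without E16 replicate 2 or either E13 array, and 0 passed on both lists without the 4 arrays with discordant Xist.

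Germ cell and meiosis lists were thinly covered, with 8 and 4 measured members. Of these 1 and 2 were higher, against 0.836% of all genes. Stag3, a cohesin subunit of meiotic chromosomes, read 109 and 143 at E16 and 10.6 and 27.4 at E13 (log2 2.05 ± 0.26, limma adjusted p = 0.00456). Sycp3, of the synaptonemal complex axis, read 98.1 and 130 at E16 and 17.8 and 35.9 at E13 (1.63 ± 0.27, limma adjusted p = 0.0168). Both rose, while Sycp2 (1.22) and Sycp1 (0.12) did not pass, and Sycp1 stayed at or below 3.4 on all 4 arrays. Among germ cell genes 1 of 8 passed, Ifitm3, a membrane protein of migrating germ cells in mouse (1.57 ± 0.25, limma adjusted p = 0.014), and all 8 lay above 0. The meiosis count of 2 became 1 without replicate 1 of either age, and 0 without E16 replicate 2 or without the 4 arrays with discordant Xist. The germ cell count of 1 became 0 without either E13 array, E16 replicate 2 or those 4 arrays. Ifitm3 and its neighbour Ifitm1 (1.26, limma adjusted p = 0.0526) are also made by other cells.

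The falls began with genes of the early gonad. Sry fell by 2.28 ± 0.24 (SE) on the log2 scale (limma adjusted p = 0.00169). Hoxa5, a homeobox gene of regional identity, read 41.2 and 16.5 at E16 and 160 and 167 at E13 (-2.05 ± 0.29, limma adjusted p = 0.00719). Tle6, a co-repressor of the Groucho family, read 6.0 and 7.1 at E16 and 77.7 and 95.4 at E13 (-2.18 ± 0.36, limma adjusted p = 0.0168). The E16 arrays of all 3 lay entirely below the E13 arrays. On the list of 22 measured early gonad transcription factors, 0 were higher and 2 lower (Sry and Hoxa5), against 0.211% of genes called lower, and the median was -0.51. Emx2 (-1.49), Nr2f1 (-1.53), Gata6 (-0.76) and Cbx2 (-0.68) did not pass. An offset of 50, quantile scaling, the intensity trend or the random chip batch block each gave 3 lower. With chip period as a block there were 6. The count of 2 became 1 without replicate 2 of either age and 0 (limma) without the 4 arrays with discordant Xist.

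Of 29 measured glycolysis and hypoxia genes 0 were higher and 4 lower, against 0.211% of all genes called lower. Ldha, lactate dehydrogenase A, read 731 and 944 at E16 and 2167 and 2766 at E13 (log2 -1.54 ± 0.24, limma adjusted p = 0.0126). Slc16a3, a lactate exporter, read 34.0 and 29.7 at E16 and 177 and 193 at E13 (-2.07 ± 0.34, limma adjusted p = 0.0165). Eno1, an enolase, read 1371 and 1529 at E16 and 2963 and 3676 at E13 (-1.18 ± 0.23, limma adjusted p = 0.0396). No E16 array reached the lower E13 array in these 3 genes. Pgk1, phosphoglycerate kinase, fell on 2 of its 3 probe sets, by 1.11 on the brightest (limma adjusted p = 0.0477), and its dimmest read at most 6.4 on the 4 arrays.

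Among the 29 members 24 lay below 0, and the median was -0.52. Enzymes that did not pass included Tpi1 (-1.09, limma adjusted p = 0.0598), Pfkl (-1.03), Gpi (-0.81), Pgam1 (-0.64) and Aldoa (-0.56), and so did the glucose transporters Slc2a3 (-0.78, limma adjusted p = 0.0575) and Slc2a1 (-0.72). Not all members followed: Pfkm (-0.01), Hk1 (-0.01), Ldhb (-0.18) and Hif1a (-0.01) were close to 0 and Pfkp differed by 0.78. The summed intensity of the list was 10812 and 11200 in the E16 arrays and 17832 and 20898 in the E13 arrays. The count of 4 became 1 without E13 replicate 1 and 0 without E13 replicate 2 or either E16 array, and likewise 0 once the arrays with discordant Xist were dropped. An offset of 1 left 1 call and median centring 2, but there were 6 with an offset of 50, quantile scaling, a mean intensity of at least 50, the random chip batch block or the replicate block, and 7 with chip period as a block. The mitochondrial respiratory chain, with 84 measured genes, had 0 called in either direction (limma) and a median of -0.05.

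Further genes that fell have separate roles. Mt2A, a metal-binding metallothionein, read 131 and 206 at E16 and 502 and 566 at E13 (log2 -1.60 ± 0.24, limma adjusted p = 0.0109), while Mt3 read 103 and 218 at E16 and 23.2 and 29.4 at E13 (1.98 ± 0.35, limma adjusted p = 0.0265). Metallothionein copies are alike, so their probes may not be fully separate. Both metallothionein calls were lost without E13 replicate 2 or the arrays with discordant Xist, Mt2A also without E16 replicate 1, and Mt3 also without E16 replicate 2 or E13 replicate 1. Cga, the shared alpha subunit of the glycoprotein hormones, read 36.4 and 37.7 at E16 and 109 and 155 at E13 (-1.46 ± 0.18, limma adjusted p = 0.00379). For each the arrays of the ages lay apart. Gucy1b1, a subunit of soluble guanylate cyclase, was lower on both probe sets (-1.34 and -1.25), Errfi1, a feedback inhibitor of the EGF receptor, differed by -1.51, and Car14, a carbonic anhydrase, passed on its brighter probe set at -1.26. Oprk1, Ly6l and Odf4 passed only on a dimmer probe set, and their brightest did not pass. The largest fall of all, -3.18, belonged to a probe set with no gene symbol.

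**Figure D3:**
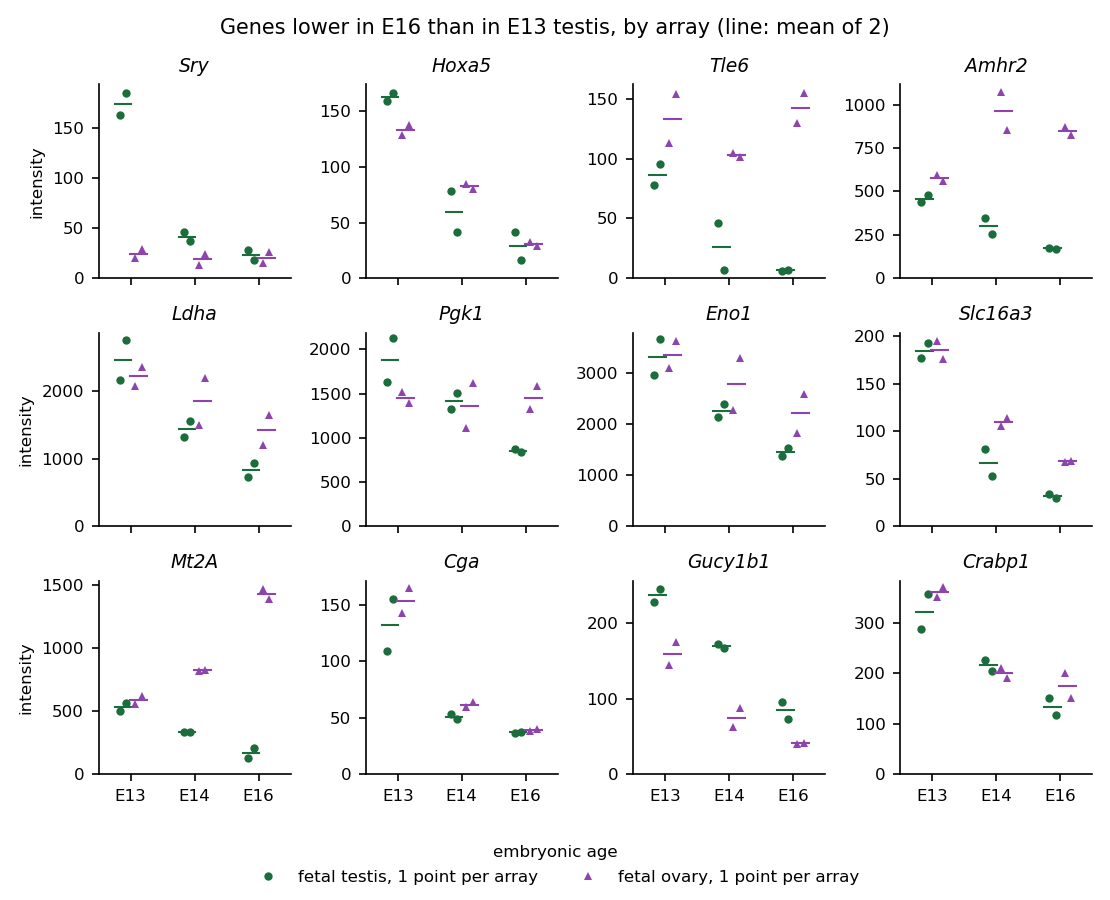
Intensity (vertical axes, linear, each from 0) at E13, E14 and E16 for 12 genes that were lower in E16 than in E13 testis, drawn with 1 point per array, testis as green circles, ovary as purple triangles and a line at the mean of 2. Sry, bright at E13, reads 45.9 and 37.1 by E14, Ldha, Eno1 and Slc16a3 are lower at E16 than at E13 in both sexes, and Mt2A and Amhr2 part between the sexes.

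Of the markers of red and white blood cells, vessel, kidney and nerve cells, only Apoc1 passed, although single genes differed widely without passing. The adult-type globin Hbb read 4396 and 7053 at E16 and 51.3 and 115 at E13 (log2 5.89, limma adjusted p = 0.114), while the embryonic globins Hbz (-2.06) and Hbg1 (-1.72) read lower at E16 and Hbe1 differed by 0.14. None of the 14 passed. With the 4 arrays alone, the 8 testis arrays alone or chip period as a block, 1 was higher. The spread in the main fit is pooled over all groups, and the cultured testis arrays summed to 11748 and 1269 on this list. The summed intensity of the list was 12747 and 14082 at E16 and 9783 and 14013 at E13, and these sums overlapped between the ages. Globin copies are alike and may share probes. Of 20 mesonephros and kidney genes 0 passed, and their sums were 1198 and 1129 at E16 and 1707 and 1825 at E13. This sum was lower in both E16 arrays, beside the falls described above, and its part in them was not tested.

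Of 20 endothelial genes 0 passed, among them Plvap, a protein of vessel wall openings (-1.82, limma adjusted p = 0.495), with sums of 1828 and 1731 at E16 and 1750 and 1587 at E13. Of 24 macrophage and white blood cell genes 1 was lower, Apoc1 (log2 -1.19 ± 0.19, limma adjusted p = 0.0127), an apolipoprotein, and the sums were 1296 and 1250 at E16 and 1284 and 1296 at E13. Apoc1 lost its call without either E16 array, E13 replicate 2 or the arrays with discordant Xist. Of 20 neuron, glia and chromaffin genes 0 passed, with sums of 962 and 884 at E16 and 1214 and 1122 at E13. The cell cycle list had 1 of 38 higher, Cdc25b (1.27 ± 0.26, limma adjusted p = 0.0496), 29 members below 0 and a median of -0.12, and Cdc25b lost its call without any 1 of the 4 arrays. Beside these list counts, 0.836% of all genes were called higher and 0.211% lower. Cytosolic ribosomal protein genes had 0 of 44 called and a median of 0.013 (-0.033 with quantile scaling and -0.009 with median centring). Their summed intensity was higher in replicate 2 at both ages, at 140332 and 180187 in the E16 arrays and 128691 and 195149 in the E13 arrays.

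**Figure D4:**
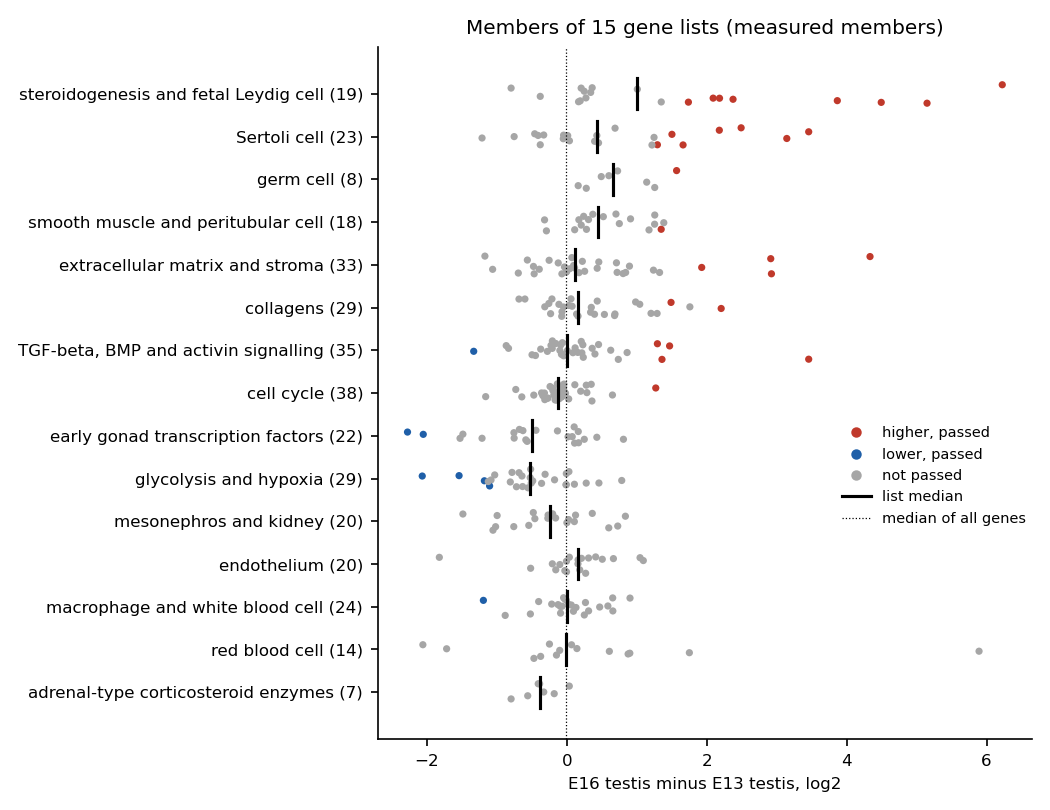
Each point is 1 measured gene of a list, placed by its E16 minus E13 testis difference (horizontal axis, log2), coloured red or blue where it passed higher or lower, with a bar at the list median and a dotted line at the median of all genes, -0.015. The Leydig list reaches furthest right (median 1.01) and the glycolysis (-0.52) and early transcription factor (-0.51) lists lie left of 0.

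The ovary arrays of the same ages allow a test of whether a change differed between the sexes. The testis change exceeded the ovary change in 15 probe sets and fell short of it in 8, at an adjusted p under 0.05 by limma for the difference of the changes (0.145% of those tested, 0.0945% upward and 0.0504% downward), and 17 of the 23 were also called in testis. Counted once per gene, 0.125% of 10411 genes passed upward and 0.0672% downward. Cpa1 had the widest positive gap after Cyp17a1: it read 35.3 and 8.5 in E16 ovary and 65.0 and 71.4 in E13 ovary, and the difference of changes was 5.91 ± 0.55 (limma adjusted p = 0.00246). For Cyp17a1 the difference was 6.09 ± 0.69, for Hsd3b1 5.25 ± 0.59, for Cyp11a1 3.93 ± 0.32, for Amh 3.92 ± 0.42 and for Star 3.30 ± 0.50. The ovary intensities of these last 5 genes were at most 70.9 units at E16 and E13. Tsx (3.00), Jag1 (2.39), Nppc (2.20) and Rnf207, a RING finger protein (2.02), completed the named genes with a larger change in testis. Of 4 Rnf207 probe sets only the brightest was called in testis.

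In the other direction, the change in testis lay below that in ovary. Mt2A read 1468 and 1392 in E16 ovary and 561 and 623 in E13 ovary, opposite to its fall in testis, and the difference of changes was -2.85 ± 0.34 (limma adjusted p = 0.00905). Amhr2 read 871 and 823.5 in E16 ovary and 592 and 563 in E13 ovary (difference of changes -1.87 ± 0.27, limma adjusted p = 0.0296). Both therefore moved in opposite directions in the 2 sexes by their means. Rbp4, a retinol carrier (-3.12), Postn, the matrix protein periostin (-2.19), Fbp2, a fructose bisphosphatase (-2.14), and Slc4a4, a bicarbonate transporter (-1.52), passed for this difference without a call in testis. Sry had a difference of -2.12 ± 0.34 (limma adjusted p = 0.0488). Cxcr4, a chemokine receptor, passed on 1 of its 3 probe sets (-1.76), which was also lower in testis (-1.15), and not on its brightest.

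Other large testis changes had a counterpart in ovary. Mgp read 523 and 345 in E16 ovary and 5.8 and 0.9 in E13 ovary, and the difference of changes was -0.19 ± 0.55. Col6a3 had a difference of -0.01 ± 0.56. Hoxa5 (-0.37 ± 0.41) and Cga (0.15 ± 0.25) fell in testis and read lower at E16 in ovary too. For these 4 genes a difference between the sexes did not pass, which does not show that the changes were equal. Aard read 482 and 537 in E16 ovary and 207 and 193 in E13 ovary. Its difference of changes, 1.21 ± 0.37, did not pass (limma adjusted p = 0.45). On the Sertoli list 2 of 23 measured genes passed for the difference. The glycolysis list held 0 genes with a passing difference and had a median of -0.39, with the falls in Ldha (-0.89 ± 0.34) and Slc16a3 (-0.82 ± 0.48) larger in testis without passing. The number of calls, 23, depended on single arrays. Leaving out replicate 1 or 2 of E16 testis gave 20 or 5, and of E13 testis 10 or 2. For ovary the same gave 12 or 7 at E16, and 5 or 2 at E13. When the 4 arrays with discordant Xist were dropped, 0 passed in limma, and 1118 had an unadjusted p under 0.05.

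**Figure D5:**
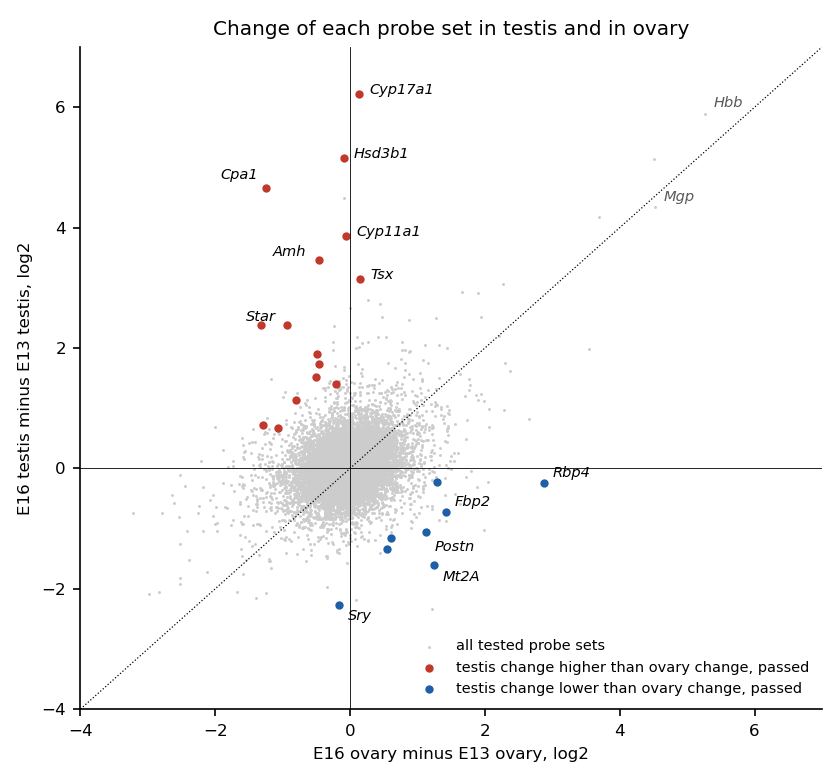
Each point is a probe set, placed by its E16 minus E13 difference in testis (vertical axis, log2) and in ovary (horizontal axis, log2); the dotted line marks equal change. Red (15) and blue (8) probe sets passed for the difference of changes, Cyp17a1, Hsd3b1 and Cyp11a1 stand high near an ovary change of 0, and Mgp and Hbb lie near the line.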

How the data were processed

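RNA of rat fetal gonads was measured on 14 single-colour Affymetrix arrays. The deposited values are intensities on a linear scale, 1 per probe set; the software and filters behind them are not stated in any label or header used here, and every array has a trimmed mean of 125.03 (2% trimmed at each end). Of 15923 probe sets 57 controls were left out, and 27 values were 0. The platform annotation gave 12783 probe sets 1 symbol, 312 several and 2771 none. Group means of log2(intensity + 16) were fitted to all 14 arrays, 7 groups, with limma 3.58.1 in R 4.3.3 (lmFit, eBayes), so the spread is pooled over groups; p-values were adjusted by Benjamini-Hochberg over 15866 probe sets. The test was also run on simulated data with independent noise per array and no batch effect. That run cannot show how batches affect the calls. With 2 arrays per group, precision is low, and p-values rest on the spread between the 2 arrays of a group, pooled over the 7 groups. That spread holds differences between pools and, in every group but E13 ovary, between chip periods.

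A gene is given by its probe set with the highest mean. Named are the 15 largest rises and falls that passed without overlap of arrays, up to 4 passing genes per list and direction (2 where none passed), 10 per direction for testis against ovary, and label checks. Members and the 37 lists were chosen with earlier results of these data known. Alternatives were the offset (1, 50), quantile or median scaling, a mean intensity of at least 50, an intensity trend with robust prior, chip period, chip batch and replicate blocks, fewer groups, and leaving out arrays; leaving out the arrays of other groups was chosen after seeing the data. Promoters were searched with RefSeq sequences.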

Additional observations from a re-analysis of the deposited data

Results flagged for a closer look

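In 17 named genes the E16 minus E13 change differed between testis and ovary by a test of the difference itself (limma, adjusted over all probe sets), and groups of 2 arrays were too small to test for outlying arrays. On the log2 scale, the testis change minus the ovary change was 6.09 for Cyp17a1, 5.91 for Cpa1, 5.25 for Hsd3b1, 3.93 for Cyp11a1, 3.92 for Amh, 3.30 for Star, 3.00 for Tsx, 2.39 for Jag1, 2.20 for Nppc and 2.02 for Rnf207. It was -1.52 for Slc4a4, -1.87 for Amhr2, -2.12 for Sry, -2.14 for Fbp2, -2.19 for Postn, -2.85 for Mt2A and -3.12 for Rbp4. In testis itself Rbp4, Postn, Fbp2 and Slc4a4 did not pass, with differences of -0.24, -1.06, -0.72 and -0.23. The E16 ovary arrays disagreed on Rbp4, at 70.1 and 188, against 2.7 and 1.4 in the E13 ovary arrays.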

How the results depend on the processing

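All 150 probe sets called between E16 and E13 testis kept their sign in every alternative that tested them, and 0 named genes reversed. As the E16 and E13 arrays lay apart in all 150, changing the offset, using fewer groups or leaving out arrays could not reverse a sign. The number of calls moved far more. It was 94 with an offset of 1, 252 with chip period as a block, 29 from the 4 arrays alone, 82 from the 8 testis arrays and 6 without the 4 arrays with discordant Xist; without single arrays it ran between 22 and 155. With an offset of 50, quantile or median scaling, the intensity filter, the trend or a random chip batch block it was 136 to 172. For the difference between testis and ovary, 23 calls became 8 with an offset of 1, 46 with chip period as a block, 45 with a random chip batch block and 0 when the arrays with discordant Xist were dropped (1118 at an unadjusted p under 0.05 in limma); without single arrays the count ran between 2 and 20. The cause of these shifts was not tested, beyond the smaller number of arrays in those that leave arrays out. With the replicate block the counts were 215 and 28; same-numbered E16 and E13 testis arrays deviated from their group means with a correlation of 0.203, and with 2 pairs, labelled as independent pools, the samples share only a number. Of 54 named calls, 5 held in all 16 alternatives. Where an array is left out, the lone array of its group is assumed to vary like the other groups. Dim probe sets limit what small levels can show: no detection call accompanies these values, so readings of a few units are not told apart from background.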

Other observations

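Genes outside the naming rule, chosen here after their values were seen, were also higher or lower in E16 testis. They were picked one by one and stand for no group. Ltbp4, a binding protein for latent TGF-beta, read 657 and 636 at E16 and 185 and 160 at E13 (log2 1.82, limma adjusted p = 0.0114), Ctsk, a collagen-cleaving cathepsin, read 48.8 and 50 at E16 and 9.4 and 8.7 at E13 (1.38, limma adjusted p = 0.00851), and Cdh11, a mesenchymal cadherin, read 797 and 746 at E16 and 374 and 312 at E13 (1.14, limma adjusted p = 0.0396). Selenop, a secreted selenium carrier, read 755 and 1145 at E16 and 319 and 329 at E13 (1.48, limma adjusted p = 0.0126). In each the E16 arrays lay above the E13 arrays. A dimmer Selenop probe set did not pass (-0.01).

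Foxs1, a forkhead gene of perivascular cells in mouse, read 96.2 and 135.5 at E16 and 26.6 and 5.8 at E13 (log2 2.10, limma adjusted p = 0.0334). Myh6, a heart-type myosin chain, read 121 and 148 at E16 and 56.5 and 20.6 at E13 (1.54, limma adjusted p = 0.0303). A dimmer Myh6 probe set did not pass (-0.16). Among the falls, Gyg1, the protein primer of glycogen, read 174 and 198 at E16 and 400 and 434.5 at E13 (-1.10, limma adjusted p = 0.0396), and Hapln1, a hyaluronan link protein, read 61.6 and 44.4 at E16 and 124 and 127 at E13 (-1.05, limma adjusted p = 0.0279). How these calls fare without single arrays was not tabulated.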
